A study of Mus musculus with 32 samples.

Results

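The histone deacetylases (HDACs) were followed in the frontal cortex (FCtx) of 20 ethanol-treated and 12 control mice. All probes carrying the symbol of 1 of 10 listed family genes were taken, which gave 12 probes of 9 genes among 25697 probes on the array. Hdac1 was not analysed here. A total of 9 probes of 7 genes were detected widely enough to be tested (24 or more of the 32 arrays with a detection p-value under 0.01), against 10187 probes in all. All mice were female F1 hybrids of C57BL/6J and FVB/NJ, labelled C57BL/6J x FVB/NJ F1, and their ages are not given in the sources used here. Treated mice chose between water and 20% ethanol in daily sessions early in the dark phase for 20 days, and the control mice received no ethanol. Each mouse gave 1 Illumina MouseRef-8 v2.0 array, so that the spread between arrays of a group is a spread between mice. Chips 1 and 2 held ethanol-treated mice only, chip 4 held controls only, and chip 3 held 4 of each.

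HDACs remove acetyl groups from lysines, which on histones tightens chromatin and lowers transcription. Class I enzymes (Hdac2, Hdac3, Hdac8) are largely nuclear, and most act as catalytic subunits of large corepressor complexes. Class IIa enzymes (Hdac4, Hdac5, Hdac7, Hdac9) have little deacetylase activity of their own. They repress MEF2 factors in the nucleus and leave it when calcium-dependent kinases phosphorylate them and 14-3-3 proteins bind. Hdac6, of class IIb, deacetylates tubulin in the cytoplasm, and Hdac11 is the sole enzyme of class IV. In the adult brain, Hdac2 is known as a brake on genes of synaptic plasticity, and Hdac5 as a regulator of responses to drugs of abuse. The arrays measure mRNA and not enzyme activity or acetylation, and in bulk tissue fewer cells of a type and less RNA per cell cannot be told apart.

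Hdac5 was read by 3 tested probes, whose sequences are shown because their ethanol differences were not the same. They lie on the minus strand of chromosome 11 and are written 5′ to 3′ in the order in which they meet the transcript, starting at its bases 2579, 3364 and 3463. The first is at chr11:102061306-102061355 and the second at chr11:102057864-102057913. The third joins neighbouring exons, with 47 bases at chr11:102057552-102057598 and 3 bases, in capitals, at chr11:102057429-102057431. These are the positions of the array table, whose genome build is not named there and is not GRCm38.
ILMN_1213290: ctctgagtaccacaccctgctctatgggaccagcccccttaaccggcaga
ILMN_2659160: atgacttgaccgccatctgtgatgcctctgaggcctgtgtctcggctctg
ILMN_3112922: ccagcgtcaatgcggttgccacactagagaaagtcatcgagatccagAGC

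Across all chips, no HDAC probe passed an FDR of 1%, at which 8.27% of all tested probes did. At an FDR of 10%, 2 of 9 passed, against 25.4% of all tested probes, and both were probes of Hdac5 that moved in opposite directions. At an unadjusted p below 0.05 limma gave 3 of 9, against 31.9% of all tested probes. The shares of HDAC probes called were thus near or under the background. In all, 7 probes were lower and 2 higher in ethanol-treated mice (5 and 4 with median scaling of the arrays), with a median log2 difference of -0.065, where the median of all tested probes was -0.0034. The 95% intervals that reached furthest from 0 were -0.23 to -0.022 for Hdac5 ILMN_3112922 and 0.018 to 0.23 for Hdac5 ILMN_1213290. Across the 9 probes these intervals hold no change above 1.18-fold, but they come from a fit that takes no account of chip or position. They therefore set no upper bound on an effect of ethanol. The corresponding intervals reached 1.29-fold within chip 3 and 1.22-fold for chips 1 and 2 against chip 4.

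Hdac2 (ILMN_2640441), a class I enzyme of the Sin3, NuRD and CoREST complexes, ranged in normalized log2 value from 10.61 to 11.28 in ethanol-treated mice (median 11.02) and from 10.93 to 11.34 in controls (median 11.17). The array annotation gives no chromosome or genome position for this probe. The groups overlapped, but only 3 of 20 ethanol-treated mice lay above the control median. The mean was 11.02 ± 0.14 (SD, n = 20) against 11.13 ± 0.15 (SD, n = 12), a log2 difference of -0.12 (SE 0.051, adjusted p = 0.104 by limma). Hdac3 (ILMN_1220353), the catalytic subunit of the NCoR and SMRT complex, had a median of 10.32 (10.09 to 10.56) under ethanol and of 10.41 (10.28 to 10.52) in controls. The lowest values belonged to ethanol-treated mice and the groups overlapped, with 5 of 20 above the control median and a difference of -0.065 (SE 0.040, adjusted p = 0.268). Hdac8, a class I enzyme that works outside these complexes and deacetylates cohesin, was detected on 8 of 20 ethanol-treated and 2 of 12 control arrays. Its probe did not enter the test.

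Hdac4 (ILMN_1219682), a class IIa enzyme, ranged from 8.30 to 9.14 in ethanol-treated mice (median 8.81) and from 8.63 to 9.02 in controls (median 8.86). The ethanol-treated group reached beyond the controls on both sides, and the difference of -0.079 (SE 0.062, adjusted p = 0.405) was under its spread. Hdac7 (ILMN_2768755), a class IIa enzyme known best from blood vessels and thymocytes, lay at 7.88 ± 0.10 (SD, n = 20) against 7.96 ± 0.14 (SD, n = 12). Its 6 of 20 ethanol-treated mice above the control median went with a difference of -0.086 (SE 0.043, adjusted p = 0.164). Hdac9, the remaining class IIa gene, was at background on nearly every array. Its probe ILMN_2590403 was detected on 0 of 32 arrays and its probe ILMN_2644302 on 1 of 32, so that neither group has a measured level and no fold is given.

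The 3 probes of Hdac5 gave 3 different pictures. The probe that meets the transcript first, ILMN_1213290, ranged from 7.69 to 8.31 in ethanol-treated mice (median 7.98) and from 7.65 to 8.20 in controls (median 7.81), and 17 of 20 ethanol-treated mice lay above the control median. Its difference was 0.13 (SE 0.053, adjusted p = 0.0934), which passed an FDR of 10% but not of 1%. Probe ILMN_2659160 ranged from 9.58 to 10.23 (median 9.83) against 9.63 to 10.09 (median 9.87), with 8 of 20 ethanol-treated mice above the control median. No shift was detectable there, at a difference of -0.026 (SE 0.054, adjusted p = 0.783). Probe ILMN_3112922, over the exon junction, ranged from 10.43 to 11.10 (median 10.71) against 10.71 to 11.04 (median 10.83). Of 20 ethanol-treated mice 10 lay under the lowest control, 5 lay above the control median, and the difference was -0.13 (SE 0.052, adjusted p = 0.0816).

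Because of these opposite directions, the within-array difference between probes of a gene was compared between the groups, a test chosen after the values were seen. It was run over 2865 pairs of tested probes of 1748 genes, of which 5.62% were called at an FDR of 1% and 16.9% at 10%. ILMN_1213290 was raised by 0.25 relative to ILMN_3112922 in ethanol-treated mice (SE 0.068, 95% interval 0.12 to 0.39, adjusted p = 0.00927). Relative to ILMN_2659160 it was raised by 0.15 (SE 0.053, adjusted p = 0.0524), which passed an FDR of 10%. The remaining pair differed by 0.10 (adjusted p = 0.235). The first contrast was 0.30 within chip 3 (adjusted p = 0.206) and 0.22 between chips 1 and 2 and chip 4 (adjusted p = 0.0467), where 4.96% and 27.4% of all pairs passed an FDR of 10%. With both chip and position as terms it was 0.21 (adjusted p = 0.786), in a fit that called none of the 2865 pairs at an FDR of 10%. These 2 probes differ in level, with ethanol and control means of 7.98 and 7.85 for ILMN_1213290, and of 10.72 and 10.85 for ILMN_3112922. The undetected Hdac9 probes had group means of 7.33 to 7.39, and the part of low signal in the pair difference was not tested.

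Hdac6 (ILMN_2943818), the tubulin deacetylase of class IIb, lay at 7.97 ± 0.086 (SD, n = 20) against 8.03 ± 0.12 (SD, n = 12), with a difference of -0.058 (SE 0.039, adjusted p = 0.317). Values ran from 7.81 to 8.13 in ethanol-treated mice and from 7.82 to 8.22 in controls, so that the groups nearly coincided and the highest values were those of controls. Hdac11 (ILMN_2614912), the class IV enzyme, had the smallest shift of the 9 probes, at 9.76 ± 0.11 (SD, n = 20) against 9.74 ± 0.10 (SD, n = 12). With a range of 9.50 to 9.89 in ethanol-treated mice and 9.55 to 9.89 in controls, the groups covered the same values, and the difference was 0.018 (SE 0.041, 95% interval -0.066 to 0.10, adjusted p = 0.806). The bead error behind 1 value was a median of 0.063 to 0.085 on the log2 scale over these probes, from 24 to 65 beads a probe and array. The SD between mice within a chip and position class was 0.085 to 0.16.

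**Figure D1:**
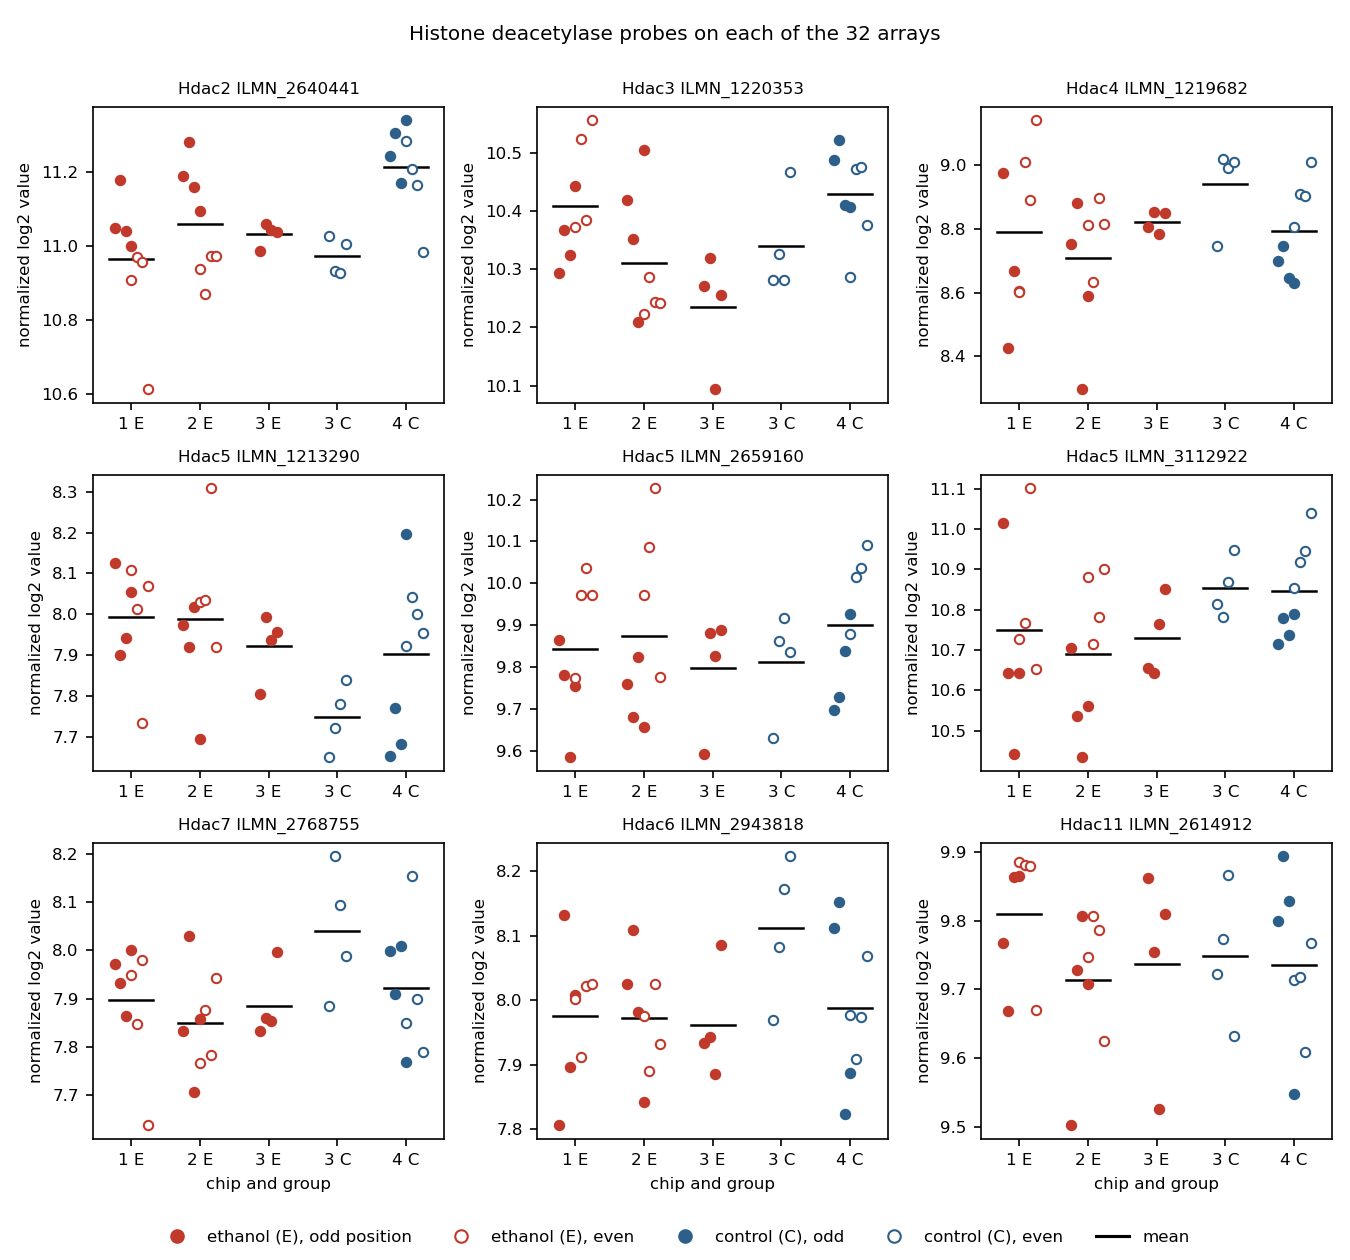
Normalized log2 value (vertical axis, own range in each panel) of the 9 tested HDAC probes on each of the 32 arrays, by chip and group (E ethanol, C control); filled points are odd and open points even positions, and black lines are means. In the Hdac2 panel the chip 4 controls lie highest, while the chip 3 controls lie with the ethanol-treated mice.

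Treatment and chip coincide except on chip 3, so the comparison was repeated within chip 3 and between the chips of 1 group. Within chip 3, where the ethanol-treated mice filled the odd and the controls the even positions, 0 of 9 probes passed at an FDR of either 1% or 10%, against 1.27% and 10.7% of all tested probes. No HDAC probe had an unadjusted p below 0.05 there in limma, against 22.4% of all tested probes, with the spread estimated over all chips. With the spread taken from the chip 3 arrays alone 3 of 9 did, and without mouse C52 or A50 2 did. The 22.4% belongs to the fit over all chips and is not the background of these counts. None of the 9 passed an FDR of 10% in these fits, against 1721, 1089 and 1053 of 10187 tested probes. Directions were those of all chips in 7 of the 9 probes, and Hdac2 and Hdac11 had the other sign. For Hdac5 ILMN_1213290 the ethanol-treated mice had 7.80, 7.94, 7.96 and 7.99 and the controls 7.65, 7.72, 7.78 and 7.84, so that only the lowest ethanol-treated mouse fell among the controls, at a difference of 0.18 (SE 0.096, adjusted p = 0.279). For ILMN_3112922 the ethanol-treated mice had 10.64, 10.66, 10.76 and 10.85 and the controls 10.78, 10.81, 10.87 and 10.95, with 3 of the 4 ethanol-treated mice below every control and a difference of -0.12 (adjusted p = 0.430). Hdac7 and Hdac6 differed here by -0.16 (adjusted p = 0.266) and -0.15 (adjusted p = 0.238). Between chips 1 and 2 and chip 4, an FDR of 1% left 1 of 9 and one of 10% left 2 of 9, against 18.1% and 38.1% of all tested probes. Those that passed were Hdac2, and at 10% also Hdac5 ILMN_3112922 at -0.13 (SE 0.054, adjusted p = 0.0710).

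For Hdac2, the chips with 1 group and the mixed chip gave different answers. On chip 4 the controls ranged from 10.98 to 11.34 (median 11.23), the ethanol-treated mice of chip 1 from 10.61 to 11.18 (median 10.98) and those of chip 2 from 10.87 to 11.28 (median 11.03). Only 1 of the 16 ethanol-treated mice lay above the chip 4 control median, and Hdac2 fell by 0.20 (SE 0.043, adjusted p = 5.60e-04). On chip 3, the ethanol-treated mice had 10.99, 11.04, 11.04 and 11.06, and the controls 10.93, 10.93, 11.004 and 11.03. The order was thus turned and the ranges overlapped, with a difference of 0.059 (SE 0.070, 95% interval -0.083 to 0.20, adjusted p = 0.672). The contrasts of chip 3 and of the other chips differed by 0.26 (SE 0.082, 95% interval 0.094 to 0.43, adjusted p = 0.0313). The chip 3 contrast is also one of odd against even positions, while that of the other chips weighs both positions equally. Hdac2 was 0.19 higher at odd positions of chips 1, 2 and 4, so position and treatment cannot be told apart in this difference. Hdac2 was the only one of 9 probes whose contrasts differed at an FDR of 10%, against 20.3% of all tested probes, and none did at 1%, against 5.58%. With median scaling the value for Hdac2 was -0.077 between chips 1 and 2 and chip 4 (adjusted p = 0.612) and 0.12 for the difference of contrasts (adjusted p = 0.757), so that neither passed.

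**Figure D2:**
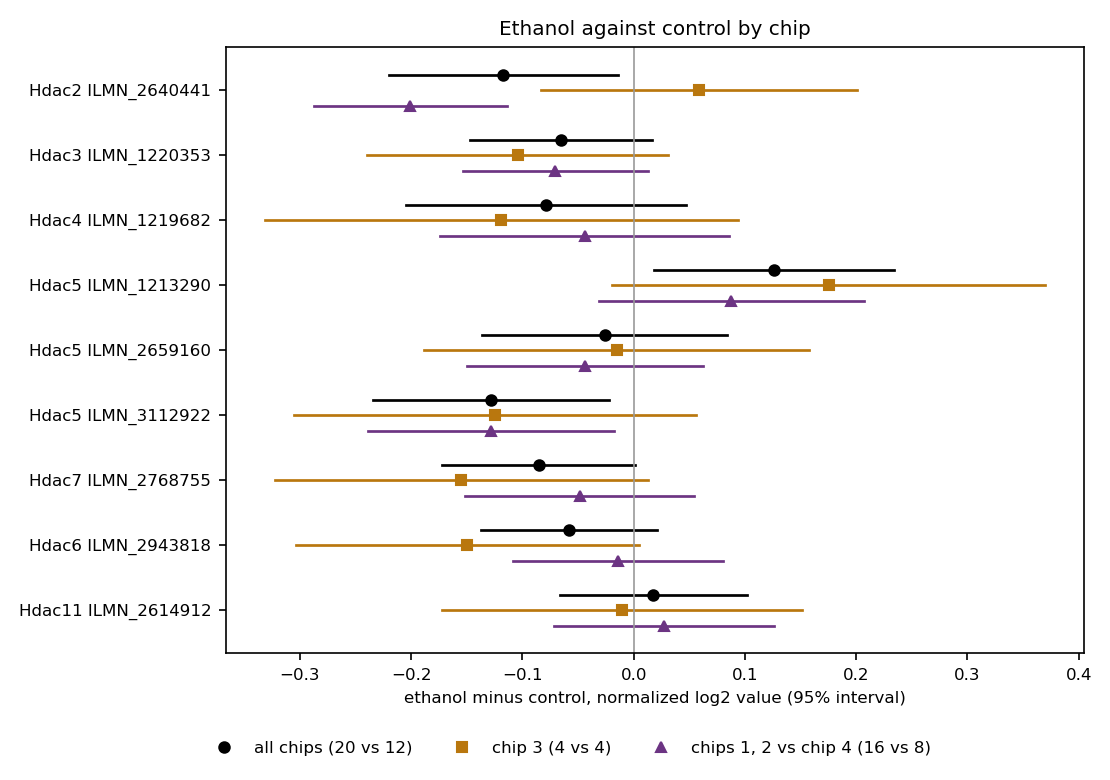
Ethanol minus control in normalized log2 value (horizontal axis) for the 9 tested HDAC probes, over all chips (circles, 20 against 12 mice), within chip 3 (squares, 4 against 4) and for chips 1 and 2 against chip 4 (triangles, 16 against 8), with 95% intervals of the fits. For Hdac2 the triangle lies at -0.20 and the square at 0.059, whereas the 3 points of each Hdac5 probe lie on the same side of 0.

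Position on the chip separated several HDAC probes within chips of 1 treatment. Over chips 1, 2 and 4, 2 of 9 probes differed between odd and even positions at an FDR of 1% and 4 of 9 at 10%, against 5.68% and 23% of all tested probes. The mice at even positions carried the higher mouse numbers on every chip, so that position, mouse number and anything tied to them cannot be told apart. Hdac2 was higher at odd positions by 0.19 (SE 0.040, adjusted p = 0.00263), and all 12 mice at odd positions lay above the median of the even positions of these chips. By chip the difference was 0.21 on chip 1, 0.24 on chip 2 and 0.11 on chip 4. With median scaling it was 0.26 (adjusted p = 0.145), no HDAC probe passed an FDR of 10%, and no probe of the array passed one of 1%. Probes of Hdac4 and Hdac5, both of class IIa, went the other way.

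Hdac5 ILMN_2659160 was lower at odd positions by a log2 difference of -0.23 (SE 0.049, adjusted p = 0.00244), with 0 of 12 odd mice above the even median. The difference was -0.19, -0.29 and -0.21 on chips 1, 2 and 4. Hdac5 ILMN_3112922 differed by -0.19 (adjusted p = 0.0115) and Hdac4 by -0.21 (SE 0.060, adjusted p = 0.0174), each with 1 of 12 odd mice above the even median and the same sign on all 3 chips. Hdac5 ILMN_1213290 was at -0.10 (adjusted p = 0.218), with 0.024 on chip 1. Hdac3, Hdac7, Hdac6 and Hdac11 differed by 0.034 or less in either direction. Since ethanol-treated mice held the odd positions of chip 3, the differences by position and by treatment cannot be told apart on that chip.

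**Figure D3:**
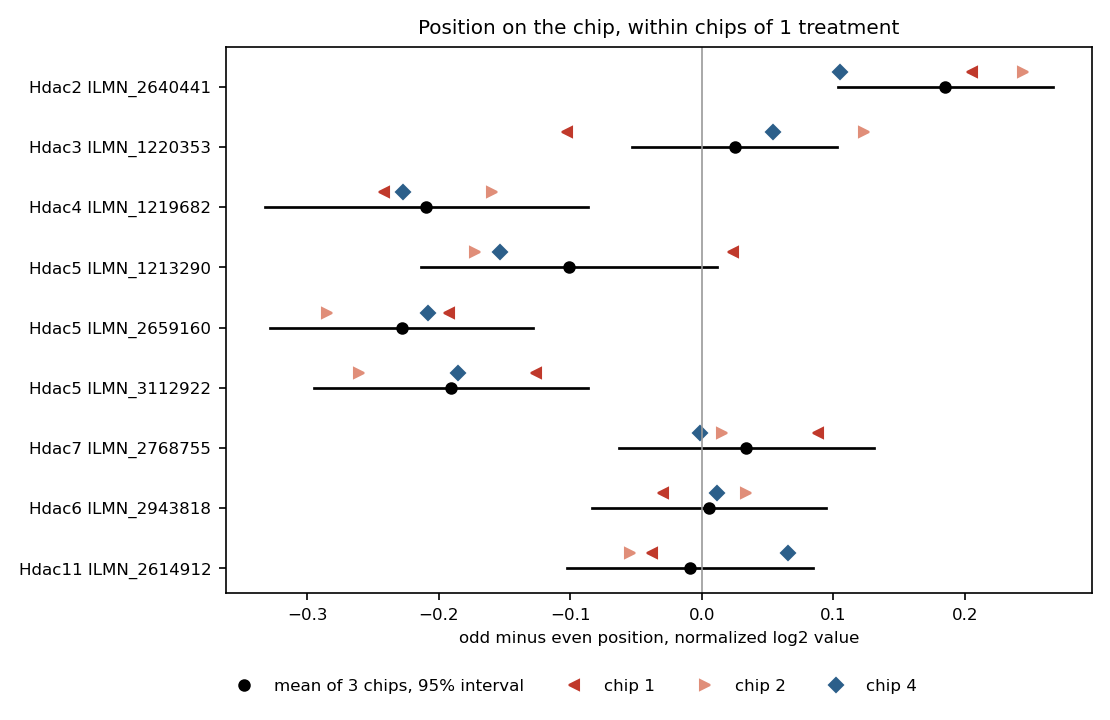
Odd minus even position in normalized log2 value (horizontal axis) within chips 1, 2 and 4, each of which held 1 treatment; circles with lines are the mean of the 3 chips with its 95% interval, and the coloured markers are single chips. Hdac2 lies above 0 on each chip, and Hdac4 and the Hdac5 probes ILMN_2659160 and ILMN_3112922 lie below 0 on each chip.

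When positions were matched, Hdac2 was lower in ethanol-treated mice at both. The even positions gave -0.17 (SE 0.049, adjusted p = 0.0396) and the odd positions -0.17 (SE 0.057, adjusted p = 0.0367), at FDR of 10% backgrounds of 10.9% and 22% of all tested probes. At the even positions the mean was 10.86 ± 0.17 on chip 1 and 10.94 ± 0.049 on chip 2 for ethanol-treated mice, and 10.97 ± 0.051 on chip 3 and 11.16 ± 0.13 on chip 4 for controls (SD, n = 4 each). The chip 3 controls therefore lay nearer to the ethanol-treated mice than to the chip 4 controls. Controls of chip 3 differed from those of chip 4 by -0.19 in Hdac2 (SE 0.070, adjusted p = 0.0925), the 1 HDAC probe of 9 that passed an FDR of 10% between these controls, against 12.7% of all tested probes. At the odd positions the mean was 11.07 ± 0.078 on chip 1, 11.18 ± 0.078 on chip 2 and 11.03 ± 0.032 on chip 3 for ethanol-treated mice, and 11.27 ± 0.075 for the chip 4 controls (SD, n = 4 each). Of the other HDAC probes, Hdac3 passed an FDR of 10% at odd positions, at -0.14 (SE 0.054, adjusted p = 0.0871), where all controls were on chip 4. Ethanol-treated mice of chips 1 and 2 had 0 of 9 HDAC probes apart at an FDR of 10% in limma, against 5.97% of all tested probes. At an unadjusted p below 0.05 there was 1, Hdac3, against 18.1% of all tested probes.

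Over the family, probes did not rise and fall as one. After each combination of chip and position was centred, Pearson's r over the 32 arrays ran from -0.28 for Hdac5 ILMN_1213290 with Hdac11 to 0.51 for Hdac5 ILMN_1213290 with Hdac5 ILMN_2659160. The Hdac5 probes ILMN_1213290 and ILMN_3112922 had an r of -0.046 with each other, while ILMN_3112922 had 0.37 with Hdac4 and 0.31 with ILMN_2659160. These are descriptions over arrays that share chips and normalization. Of 7925 other genes, those most like Hdac2 by the same measure were Ccdc53 (r = 0.79), Unc45a (r = 0.75) and D4Ertd22e (r = 0.68). For Hdac4 they were S100a13 (r = 0.75), Vat1 (r = 0.73) and Olfml3 (r = 0.72), and for the brightest probe of Hdac5 Nsg2 (r = 0.74), Trmt1 (r = 0.71) and Marcksl1 (r = 0.70). For Hdac11 they were Tsc2 (r = 0.69), Itga3 (r = 0.61) and Gcap14 (r = 0.61). For Hdac3, Hdac6 and Hdac7 the nearest genes were Slc5a6 (r = 0.63), Fxyd5 (r = 0.65) and Jph3 (r = 0.64).

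Of 88 listed genes of the HDAC complexes and their opponents, 51 were tested, each by its brightest tested probe. At an FDR of 1%, 4 were higher and 0 lower in ethanol-treated mice. This was 7.84% in either direction, against 8.27% of all tested probes (3.64% higher and 4.62% lower). At 10%, 6 were higher and 5 lower, or 21.6% in either direction, against 25.4% of all tested probes (12% higher and 13.5% lower). The median difference of the 51 genes was -0.00015. Kinases that drive class IIa enzymes out of the nucleus held 2 of the 4: Prkd3, a protein kinase D, rose by 0.21 (SE 0.041, adjusted p = 5.56e-04), and Camk2d, a calcium/calmodulin-dependent kinase, by 0.22 (SE 0.049, adjusted p = 0.00238). Another protein kinase D, Prkd2, was lower, at -0.12 (adjusted p = 0.0436), and the other 4 of 7 tested kinases did not pass. Prkd3 was also higher within chip 3, at 0.23 (adjusted p = 0.0451), and at odd positions within the chips of 1 treatment, at 0.12 (adjusted p = 0.0333). Camk2g, named after its values were seen, was lower on chip 3 at -0.37 (adjusted p = 0.00582) and higher on the other chips at 0.15 (adjusted p = 0.0174), and these contrasts differed (adjusted p = 3.77e-04). Camk2a differed by -0.095 by its brightest probe (adjusted p = 0.331) and by 0.20 by its probe with the lowest p-value (adjusted p = 0.0118).

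In the Sin3 complex, which carries Hdac2, Arid4b rose by 0.19 (SE 0.047, adjusted p = 0.00427) from a mean of 7.70 ± 0.17 (SD, n = 12) to 7.89 ± 0.10 (SD, n = 20). This level is low, with the undetected Hdac9 probes at group means of 7.33 to 7.39. Arid4b differed by 0.11 on chip 3 (adjusted p = 0.482) and by 0.23 on the other chips (adjusted p = 0.00170). Rbbp7, a histone-binding subunit, was higher by 0.19 at an FDR of 10% (adjusted p = 0.0926), and Sap30, which bridges Sin3 to its enzymes, was lower, at -0.17 (adjusted p = 0.0434). Sap30 was turned on chip 3, at 0.22, against -0.33 on the other chips, and these contrasts differed (adjusted p = 1.40e-04). They differed at an FDR of 10% also for Rbbp7 (adjusted p = 0.0474), Prkd2 (adjusted p = 0.0352) and Camk2d (adjusted p = 0.0590), each of which was closer to 0 or turned on chip 3, at -0.057, 0.083 and 0.047. On chip 3 treatment coincides with odd or even position for these genes too. Brd9, a bromodomain protein that reads acetyl-lysine, rose by 0.12 (SE 0.029, adjusted p = 0.00440), while Brd2, of the same kind, was lower, at -0.14 (adjusted p = 0.0293). Tbl1x of the NCoR and SMRT complex was higher at 0.16 (adjusted p = 0.0928), and Dnttip1 of the MiDAC complex and Sirt2, a deacetylase that uses NAD, were lower at -0.11 (adjusted p = 0.0231) and -0.12 (adjusted p = 0.0646).

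None of the 6 tested genes of NuRD, 3 of CoREST, 7 histone acetyltransferases and 6 14-3-3 proteins passed an FDR of 10% in limma. That FDR was passed by 25.4% of all tested probes. In limma 1 of NuRD and 1 14-3-3 protein had an unadjusted p below 0.05, against 31.9% of all tested probes. By its probe with the lowest p-value in place of the brightest, the 14-3-3 gene Ywhab was higher at 0.23 (adjusted p = 0.00443). The acetyltransferases Kat5 and Kat2a, named after their values were seen, had opposite differences by chip. Kat5 was at -0.25 on chip 3 (adjusted p = 0.0577) and at 0.22 on the other chips (adjusted p = 0.00119), and Kat2a at -0.37 (adjusted p = 0.0162) and 0.15 (adjusted p = 0.0512). Their contrasts differed (adjusted p = 0.00125 and 0.00207 by limma). All contrasts of chip 3 are also contrasts of odd against even positions. Within the chips of 1 treatment, odd minus even was -0.15 for Kat2a (adjusted p = 0.0501) and -0.0066 for Kat5 (adjusted p = 0.945). At an FDR of 10%, 2 of the 7 tested acetyltransferases were lower and 0 higher on chip 3, against 10.7% of all tested probes called. On the other chips 3 of the 7 were higher and 1 lower, against 38.1% of all tested probes called. The single MEF2 factor tested, Mef2c, differed by 0.26 (SE 0.12, adjusted p = 0.135), with SDs of 0.34 and 0.43 in the groups. It was 0.34 higher at odd than at even positions (adjusted p = 0.0429). With chip and position both in the fit, 0 of the 51 genes passed an FDR of 10% in limma, and 6 had an unadjusted p below 0.05. That fit called only 6 of all 10187 tested probes at an FDR of 10%, so that its lack of calls says little about these genes. Under median scaling, 5 of the 51 genes were higher and 0 lower at an FDR of 10%, against 1134 higher and 137 lower of all 10187 tested probes. The median of all tested probes was 0.053 under that scaling. Each gene named here as called over all chips by its brightest probe kept its sign under it.

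**Figure D4:**
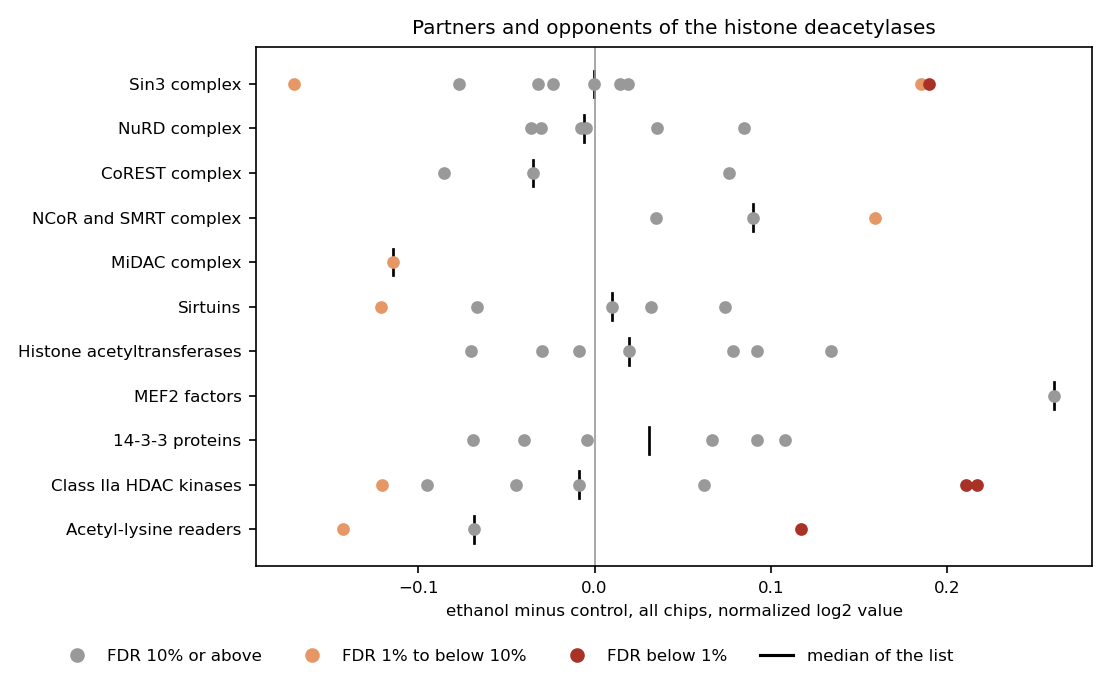
Ethanol minus control over all chips in normalized log2 value (horizontal axis) for the 51 tested genes of 11 lists, 1 point a gene, coloured by FDR; vertical bars are the list medians. The called genes lie on both sides of 0, with Prkd3 and Camk2d at 0.21 and 0.22 among the class IIa kinases and Sap30 at -0.17 in the Sin3 complex.

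The 7 tested of 11 listed neuronal genes had a mean level of 12.27 to 12.46 on the log2 scale over the 32 arrays. No genes particular to the frontal cortex were listed, so this level does not speak to the dissection. Single markers of cortical cells differed over all chips in both directions. At an FDR of 10%, 12% of all tested probes were higher and 13.5% lower. Of the 7 neuronal genes, 2 were higher and 2 lower at an FDR of 10%: Gad1, of inhibitory neurons, at 0.31 (adjusted p = 0.0136), Rbfox3 at 0.22 (adjusted p = 0.0149), Slc17a7, of excitatory neurons, at -0.26 (adjusted p = 0.00423) and Thy1 at -0.092 (adjusted p = 0.0719). Of 9 astrocyte genes, 3 were higher and 1 lower, led by the water channel Aqp4 at 0.54 (adjusted p = 8.82e-04). The median difference of the 9 astrocyte genes was only 0.014, and 5 of them had a positive difference. The 4 tested of 6 listed olfactory bulb genes were higher at odd positions with a median of 0.29. Of these 2 passed an FDR of 10%, against 23% of all tested probes. Their mean level ran from 7.48 to 9.33 in ethanol-treated mice and from 7.43 to 9.05 in controls. On chip 3 the median of these 4 genes was 0.50 with 0 of 4 called at an FDR of 10% in limma (2 at an unadjusted p below 0.05). The median of 10 oligodendrocyte genes there was -0.38, with 4 of 10 lower at an FDR of 10%. On this chip 10.7% of all tested probes passed that FDR, and 22.4% had an unadjusted p below 0.05 in limma. Over all chips the mean oligodendrocyte level spanned 9.92 to 11.09 in ethanol-treated mice and 9.88 to 10.79 in controls. After centring, the olfactory bulb level had an r over 32 arrays of 0.44 with Hdac5 ILMN_3112922, 0.42 with Hdac4 and 0.34 with Hdac2, and the microglial level had an r of 0.47 with Hdac4 and 0.44 with Hdac3. The endothelial level had an r of 0.42 with Hdac7. Among the negative values were -0.46 for striatal genes and -0.41 for neuronal genes with Hdac4, and -0.44 for blood genes with Hdac5 ILMN_1213290. Over all lists and probes r ran from -0.46 to 0.47. The part of these cells and tissues in the HDAC differences was not tested.

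Between 9480 and 11544 probes were detected on an array, and the array with the fewest, a chip 4 control, also had the lowest median signal (146). Chip 4 as a whole was dimmer, with median signals of 146 to 168, against 172 to 203 on chips 1 and 2. Without the array with the fewest detected probes, Hdac2 differed by -0.13 between the groups (adjusted p = 0.0855) and passed an FDR of 10% with Hdac5 ILMN_1213290, while Hdac5 ILMN_3112922 no longer did, at -0.11 (adjusted p = 0.159). That fit called 2148 of 10187 tested probes at 10%. Over all tested probes, 371 were higher and 471 lower at an FDR of 1%. With median scaling these counts were 136 and 12, and the median of all tested probes moved from -0.0034 to 0.053. Under that scaling Hdac2 differed by -0.038 (adjusted p = 0.833), below the all-probe median, and the signs of Hdac3 and Hdac5 ILMN_2659160 turned.

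**Figure D5:**
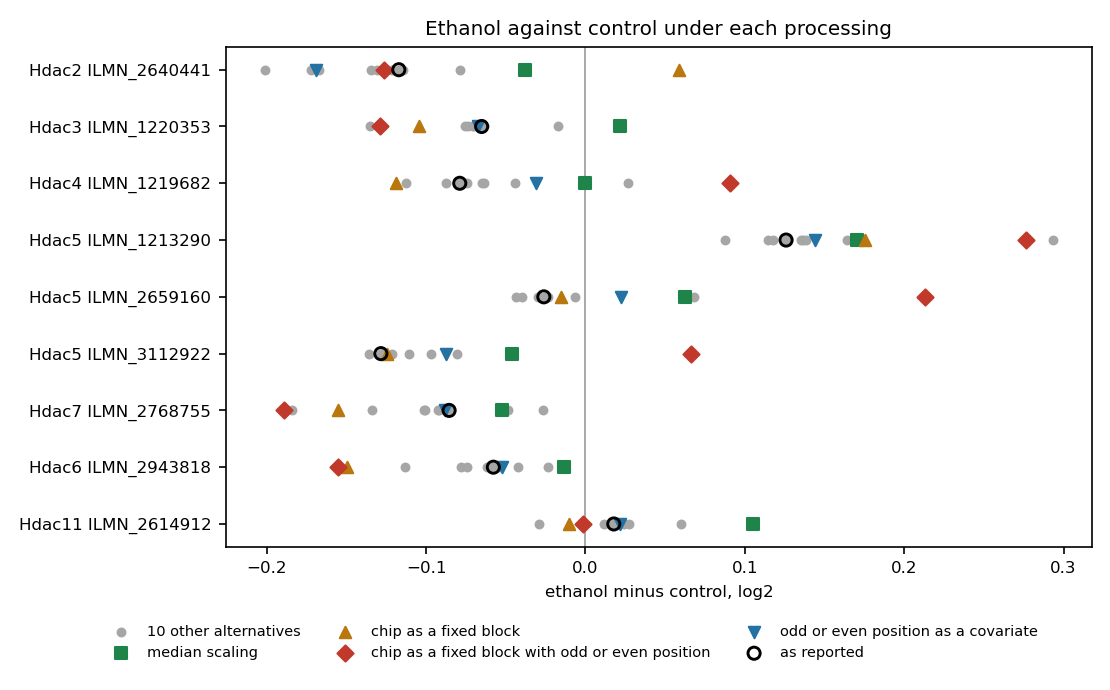
Ethanol minus control on the log2 scale (horizontal axis) for the 9 tested HDAC probes under the processing reported (open circles), 4 named alternatives (coloured markers) and 10 others (grey). Hdac5 ILMN_1213290 lies above 0 and Hdac7 and Hdac6 lie below 0 under each, whereas Hdac2 spans -0.20 to 0.059.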

How the data were processed

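The authors deposited their bead summary before normalization. Its intensities, as deposited, are mean bead signals per probe and array on a linear scale, beside a detection p-value, a bead standard error and a bead number that the authors also deposited; the background step is not stated. The study's methods and the submitters' processing notes name lumi, for variance stabilization and quantile normalization, and limma. Here a variance-stabilizing transform after that of lumi was computed from the bead errors and the arrays were then quantile normalized (R 4.3.3, with the data.table package in version 1.17.8). Groups were compared by limma 3.58.1 over 10187 of 25697 probes with Benjamini-Hochberg adjustment, without covariates over all chips, and from a mean for each chip and odd or even position (4 arrays each) for the other contrasts. Probes were called at an FDR below 1% or 10%. Genes were named from the family itself, as at most 3 called genes of a partner list, and as the 3 genes most like a member. The members and lists were chosen with earlier results of these data known. All columns were matched to a mouse through the labels. The number of arrays limits the precision, with a median SD of 0.12 on the log2 scale between mice of a group. The code was tested on simulated data. Figures used Python 3.11.15 and matplotlib 3.10.9. Alternatives were log2 of the signal, normexp (offset 16), scaling to the median, a filter on all 32 arrays or none, a fixed or random block for chip, position, array weights, leaving out chip 3, 1 array or each chip 3 array, the probe of a gene with the lowest p-value and, chosen after seeing the data, odd or even positions alone and the pairs of probes.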

Additional observations from a re-analysis of the deposited data

Results flagged for a closer look

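Hdac2 met the criterion for a difference between contrasts: ethanol minus control on chip 3 less that on chips 1, 2 and 4 was 0.26 on the log2 scale (adjusted p = 0.0313 by limma). The chip 3 contrast is also one of odd against even positions, and Hdac2 was 0.19 higher at odd positions of chips 1, 2 and 4. Treatment, chip and position cannot be told apart in this difference.

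Of 45 sets of arrays of 1 probe, chip and group that were tested for a single mouse far from the rest, 3 held one, under a 95% criterion that chance alone passes in about 1 of 20 sets. In Hdac4, 1 of the 4 chip 3 controls (mouse C52) had 8.75, with the next at 8.99. In Hdac7, 1 of 8 ethanol-treated mice on chip 1 (A21) had 7.64, with the next at 7.85, and 1 of 4 on chip 3 (A50) had 7.997, with the next at 7.86.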

How the results depend on the processing

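No paired analysis was possible because the ethanol-treated and control mice share no replicate numbers. The count of HDAC probes at an FDR of 1% over all chips was 1 with position as a covariate (Hdac2, -0.17, adjusted p = 0.00390) and 0 under the other alternatives. The fit with position called 974 of 10187 tested probes at 1%. At 10%, the 2 probes (Hdac5 ILMN_1213290 and ILMN_3112922) became 1 with normexp or median scaling (ILMN_1213290), 1 without chip 3 or at even positions alone (Hdac2 in both), and 0 with all probes, chip as a fixed or random block, or chip with position. They became Hdac2 and ILMN_1213290 with position as a covariate or without the array with the fewest detected probes, Hdac2 and ILMN_3112922 with array weights, and Hdac2 and Hdac3 at odd positions. Of the fits that gave 0 HDAC probes, that of all probes called 2403 of 25697 at 10%. Of 10187 probes, 657 were called with chip as a fixed block, 1000 with chip as a random block and 6 with chip and position. Among the fits that called HDAC probes, the counts at 10% were 2539 with normexp, 1271 with median scaling, 3256 without chip 3 and 1113 at even positions. They were 2762 with position as a covariate, 2148 without the array with the fewest detected probes, 2598 with array weights and 2245 at odd positions. With median scaling, which took the all-probe median as far as -0.12 (for the difference of contrasts), the count for chips 1 and 2 against chip 4 was 0 at 1% and 1 at 10%, that for the difference of contrasts 0 at 10%, and those for odd against even positions 0 at both; Hdac2 was then at -0.077, 0.12 and 0.26. The partner genes at 10% went from 6 higher and 5 lower to 0 and 0 with chip and position, and to 5 and 0 with median scaling. Of all 10187 tested probes, that scaling called 1134 higher and 137 lower. With the probe of the lowest p-value the partner genes were 8 and 5. At 1%, their 4 higher became 1 with median scaling and 6 with the probe of the lowest p-value. With chip as a fixed block only chip 3 informs the ethanol difference, so that its values are those of the chip 3 contrast. Leaving out chip 3 likewise gives the differences of chips 1 and 2 against chip 4. These alternatives are therefore not independent of those contrasts. Over all chips, 113 of 126 alternative values of single HDAC probes kept their sign and their side of an FDR of 1%, 1 passed it and 12 changed sign. The latter were Hdac3 (0.022) and Hdac5 ILMN_2659160 (0.062) under median scaling; Hdac2 (0.059) and Hdac11 (-0.011) with chip as a fixed block; ILMN_2659160 with position (0.022) and at even positions (0.068); Hdac4 (0.090), ILMN_2659160 (0.21), ILMN_3112922 (0.066) and Hdac11 (-0.0016) with chip and position; and Hdac4 (0.027) and Hdac11 (-0.029) at odd positions. For chips 1 and 2 against chip 4, median scaling turned Hdac3 (0.074), Hdac4 (0.087), ILMN_2659160 (0.10), ILMN_3112922 (0.0024), Hdac7 (0.012) and Hdac6 (0.065). It also turned the difference of contrasts of ILMN_2659160 (-0.15) and ILMN_3112922 (-0.15), and odd minus even for Hdac11 (0.048). Within chip 3, leaving out 1 mouse at a time moved ILMN_2659160 between -0.075 and 0.053 and Hdac11 between -0.052 and 0.060, and changed no other sign. The pair of ILMN_1213290 and ILMN_3112922 ranged from 0.21 to 0.43 over 12 alternatives, with an adjusted p of 0.00872 to 0.786, under 0.1 in 8 and under 0.01 in 1. The adjusted p of Hdac2 over all chips ranged from 0.00390 to 0.833 over 14 alternatives. The causes were not tested. Array signal limits the reading of Hdac8 and Hdac9, which were near background. The tested probes Hdac5 ILMN_1213290, Hdac6 and Hdac7 were detected on all 32 arrays but also lay low, at group means of 7.85 to 8.03. The group means of the Hdac9 probes were 7.33 to 7.39.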
